A study of Mus musculus with 16 samples.

Results

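Neuropeptide Y (Npy), agouti-related peptide (Agrp), the NPY receptors Npy1r, Npy2r and Npy5r, and the AgRP-neuron genes Corin and Acvr1c were followed by gene symbol through all libraries of the series. All 7 genes were found among 45706 gene rows, and all 7 passed the filter on low counts in every comparison. The study used bacTRAP, in which ribosomes carrying the protein L10a fused to GFP are precipitated from cells that express Cre, here cells that express Pnoc, the gene of prepronociceptin. Hypothalami of 4 mice made 1 pool, and each pool gave an input library, RNA of the whole lysate, and a pulldown library, RNA bound to the precipitated ribosomes. Pools 1 to 4 carried the genotype label Control (Lepr-flox) and pools 5 to 8 the label Pnoc Lepr deletion, so that 16 libraries formed 4 groups of 4. Both kinds of mice had been crossed with ROSA-STOP-L10a-bactrap mice and were kept on a C57Bl/6N background. They ate chow and were sampled random-fed in the morning at 12 weeks of age (from 10 weeks in the extraction protocol). The Cre allele of the control pools is not named in the labels, and every library mixes tissue of 4 animals.

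NPY is a peptide that drives feeding. It is made by many inhibitory neurons, among them the AgRP neurons of the arcuate nucleus, which leptin restrains. Its receptors Y1, Y2 and Y5 couple to inhibitory G proteins; Y1 and Y5 act largely on target cells, and Y2 largely as a brake on the cell that releases NPY. AgRP blocks melanocortin receptors on downstream neurons, and within the hypothalamus its RNA is a defining mark of AgRP neurons, whereas Npy RNA is also found in other cells. Corin is a membrane protease that activates natriuretic peptide precursors, and Acvr1c encodes ALK7, a receptor for activin-like ligands; both are used as AgRP-neuron genes in the hypothalamus.

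On GRCm38.p6 the genes lie at chr6:49822710-49829507 (Npy), chr8:105566695-105579845 (Agrp), chr8:66697149-66706800 (Npy1r), chr3:82538383-82548989 (Npy2r), chr8:66679965-66688094 (Npy5r), chr5:72299948-72504540 (Corin) and chr2:58267453-58357896 (Acvr1c). Npy5r and Npy1r are neighbours on opposite strands, 9054 bases apart. Agrp lies inside the long noncoding gene Gm38250, and Acvr1c spans the noncoding gene Gm13544. The labels do not say whether counting used strand, so reads of Agrp or Acvr1c may not be separable from reads of these partners. Promoter sequence is shown for Npy, the peptide gene with the highest level and the clearest enrichment, and for Npy5r and Corin, whose levels passed in no edgeR comparison with TMM scaling, as a contrast. The lines give the 250 bases before the gene start from RefSeq on GRCm38.p6, 5′ to 3′ on the gene's strand. Capitals mark CCAAT or GGGCGG (the GC box), on either strand.

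Npy promoter, chr6:49822460-49822709, plus strand: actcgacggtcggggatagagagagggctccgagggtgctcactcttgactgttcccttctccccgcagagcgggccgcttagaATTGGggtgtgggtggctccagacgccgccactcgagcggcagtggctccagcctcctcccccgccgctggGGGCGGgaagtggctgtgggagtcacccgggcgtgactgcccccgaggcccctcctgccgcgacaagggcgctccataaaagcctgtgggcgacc

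Npy5r promoter, chr8:66688095-66688344, minus strand: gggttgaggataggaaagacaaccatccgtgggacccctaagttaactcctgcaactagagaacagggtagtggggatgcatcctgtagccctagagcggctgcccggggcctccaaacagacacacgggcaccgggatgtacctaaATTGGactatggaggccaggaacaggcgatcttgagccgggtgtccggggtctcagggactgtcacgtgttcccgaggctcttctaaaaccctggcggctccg

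Corin promoter, chr5:72504541-72504790, minus strand: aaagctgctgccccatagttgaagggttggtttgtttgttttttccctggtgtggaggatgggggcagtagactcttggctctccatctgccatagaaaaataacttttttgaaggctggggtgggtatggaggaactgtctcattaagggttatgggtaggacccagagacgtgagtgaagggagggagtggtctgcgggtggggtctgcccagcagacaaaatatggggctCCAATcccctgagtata

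All 3 windows hold a CCAAT match, at 166 bases before the start in Npy, 103 in Npy5r and 17 in Corin. Of 32851 RefSeq windows of this length 33.8% hold one. Npy also holds a GC box, 95 bases before the start, as do 32.7% of windows. Windows of Npy2r and Acvr1c hold GC boxes as well. The STAT motif TTCNNNGAA (7.02% of windows) and the FOXO motif TGTTTAC (3.17%), searched on both strands, had no match in any window of the 6 genes with a promoter entry. Windows of Npy1r, Npy2r and Acvr1c, which are not printed, lie wholly or partly inside the gene spans given above. A match describes letters only, and its absence says nothing of the factor.

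Library totals were 64435952 to 78623636 estimated counts. Levels are given as CPM, counts scaled to the library size by the TMM method of edgeR, and, where genes are compared with each other, as deposited TPM, which also divides by transcript length. Pnoc was 2.55 to 2.97 CPM in control input and 7.29 to 10.1 CPM in control pulldown, a log2 fold change of 1.68 in both genotypes. The targeted gene did not follow the genotype label. Lepr in pulldown was 1.86, 1.42, 1.65 and 1.55 CPM in control pools and 2.42, 2.54, 2.82 and 2.68 CPM in pools labelled Lepr deletion (log2 fold change 0.71, SE 0.12, edgeR adjusted p = 0.0386). The labels do not give the deleted stretch, and a gene total includes any exons that remain, so Lepr totals check nothing here and each direction between genotypes below rests on the labels. Summed astrocyte markers were 3206 to 3591 CPM in control input and 379 to 409 CPM in control pulldown, and 10 of 10 were lower. Pan-neuronal markers were higher in 11 of 12. With bulk tissue, fewer cells of a type and less RNA per cell cannot be told apart.

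Npy was the most abundant of the 7 genes in every group by TPM. In control input it was 43.9 ± 7.47 TPM (SD, n = 4), against 9.61 ± 2.70 for Agrp, 7.86 ± 1.06 for Npy2r and 7.79 ± 0.510 for Npy1r. The last 3 did not differ beyond their spread. Acvr1c (2.09 ± 0.143 TPM) and Npy5r (1.84 ± 0.231) followed, also within their spread of each other, and Corin was lowest, at 0.243 ± 0.0198 TPM. In control pulldown the order was Npy (136 ± 18.1 TPM), Npy2r (20.2 ± 2.95), Agrp (17.3 ± 3.62), Npy1r (14.6 ± 1.82), Npy5r (4.15 ± 0.682), Acvr1c (2.43 ± 0.500) and Corin (0.463 ± 0.147). Agrp, at 14.1 to 22.5 TPM, overlapped with both Npy2r and Npy1r, while every Npy2r value (15.9 to 22.2 TPM) lay above every Npy1r value (11.8 to 15.6 TPM). Npy5r, at 3.15 to 4.66 TPM, lay above Acvr1c, at 1.72 to 2.79 TPM. Pools labelled Lepr deletion had Npy at 48.6 ± 9.39 TPM in input and 186 ± 17.2 TPM in pulldown. There Agrp was 9.27 ± 1.08 and 18.4 ± 3.39 TPM, Npy2r 7.43 ± 0.482 and 17.7 ± 1.12 TPM, and Npy1r 9.32 ± 1.69 and 15.4 ± 0.642 TPM.

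By mean TPM among 30329 genes, Npy ranked 2055 in control input and 1455 in control pulldown, and 1985 and 1047 in the pools labelled Lepr deletion. Agrp ranked 6901 and 6966 in control and 7222 and 6758 in pools labelled Lepr deletion. Corin rested on 36 to 93 counts per library, against 585 to 2608 for Npy.

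**Figure D1:**
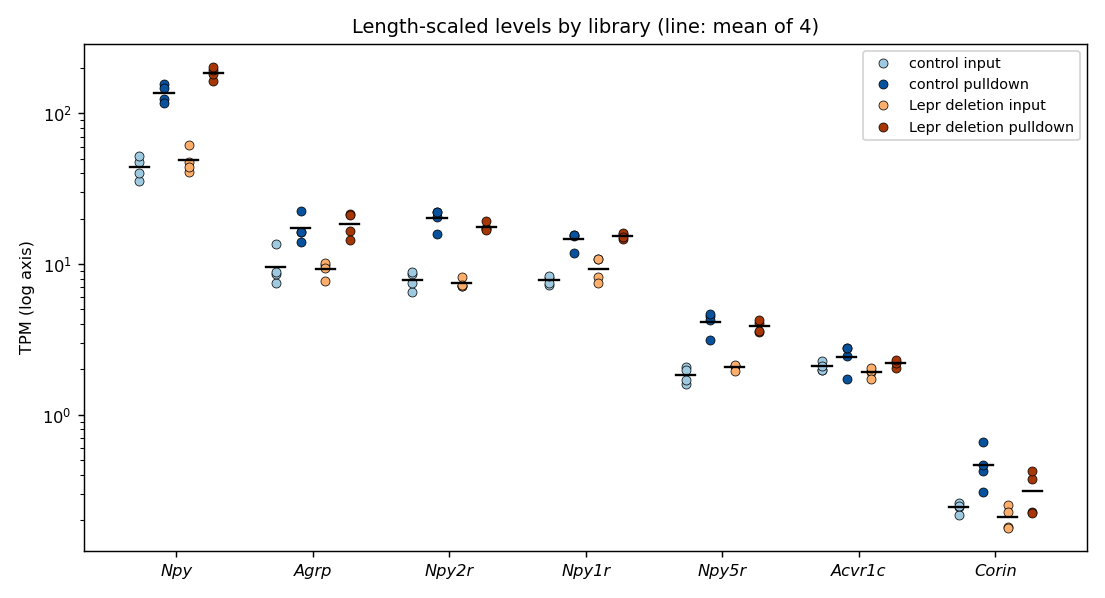
Deposited TPM (log axis) of the 7 genes, ordered by mean level, with 1 point per library, 1 colour per group and a line at each mean of 4 libraries. Npy, with group means of 43.9 to 186 TPM, stands above Agrp, Npy2r and Npy1r, which lie close together at 7.43 to 20.2 TPM, and Corin is lowest.

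The first comparison was between the RNA on the precipitated ribosomes and the RNA of the whole hypothalamus in control pools. Npy and Npy2r were higher in pulldown, Acvr1c was lower, and Agrp, Npy1r, Npy5r and Corin did not pass. The test was the quasi-likelihood test of edgeR, adjusted by Benjamini-Hochberg over all 17570 genes tested. Of all genes 64.8% passed, 30.1% higher and 34.6% lower, so that 3 called of 7 is no excess over the background. The median log2 fold change was -0.08 over the 7 genes and -0.02 over all genes. The scaling sets the zero of these values. With library totals in place of TMM the median of all genes moved by 0.547, and 76.2% of called genes were higher in place of 46.5%. Changes below are therefore relative to the bulk of genes.

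Npy was 14.7, 10.95, 12.7 and 15.9 CPM in the input of control pools 1 to 4 and 24.8, 19.1, 17.96 and 22.1 CPM in their pulldown. All 4 pulldown libraries lay above all 4 input libraries. The log2 fold change was 0.61 (SE 0.12, edgeR adjusted p = 0.00107), above that of 91.9% of the genes tested. In TPM, Npy was 35.3 to 52.0 in input and 117 to 156 in pulldown.

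Npy2r, the receptor that brakes NPY release, was 15.9, 21.6, 18.96 and 21.9 CPM in input and 20.9, 28.7, 25.6 and 27.9 CPM in pulldown. Of the 4 pulldown libraries 3 lay above every input library, and pool 1 did not. The log2 fold change was 0.38 (SE 0.12, edgeR adjusted p = 0.0143). Npy1r, the Y1 receptor, was 18.3, 16.8, 17.3 and 19.3 CPM in input and 14.4, 17.98, 18.2 and 18.04 CPM in pulldown, which overlapped (-0.08, SE 0.08, edgeR adjusted p = 0.428). Npy5r, the Y5 receptor, was 2.73 to 3.60 CPM in input and 2.88 to 4.04 CPM in pulldown, also overlapping (0.19, SE 0.14, edgeR adjusted p = 0.276). By library totals Npy1r was 0.47, a change of sign, and relative to the median of all genes it was -0.06.

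Agrp was 2.86, 3.30, 3.41 and 5.13 CPM in control input and 3.25, 2.68, 3.10 and 4.21 CPM in pulldown. Pool 4 was highest in both fractions, and the groups overlapped. The log2 fold change was -0.17 (SE 0.19, edgeR adjusted p = 0.462). On the log2(TPM + 1) scale it was 0.80 and passed (limma adjusted p = 0.00193), while the median of all genes there moved by 0.772 and Agrp stood 0.05 above that median. The defining gene of AgRP neurons was thus near the middle of all genes, whereas Npy was in the upper tail.

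Acvr1c was 14.4, 16.9, 13.5 and 15.4 CPM in control input and 6.69, 9.12, 10.3 and 10.1 CPM in pulldown, and every pulldown library lay below every input library. The log2 fold change was -0.75 (SE 0.13, edgeR adjusted p = 0.000265). With library totals it was -0.20 and did not pass (edgeR adjusted p = 0.15), and on the log2(TPM + 1) scale it was 0.14. Relative to the median of all genes the values were -0.73 by either count scaling and -0.61 in TPM, so Acvr1c was low against other genes rather than on every scale. Corin was 0.877, 0.786, 0.954 and 0.909 CPM in input and 0.815, 0.994, 0.863 and 0.560 CPM in pulldown, which overlapped (-0.14, SE 0.22, edgeR adjusted p = 0.586; 0.23 on the log2(TPM + 1) scale).

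In the pools labelled Lepr deletion Npy and Npy2r were again higher in pulldown and Acvr1c lower, and the other 4 genes did not pass. There 61.6% of 17423 genes passed, 28.8% higher and 32.8% lower. Of called genes 46.8% were higher with TMM and 74.4% with library totals, which moved the median of all genes by 0.455. The median log2 fold change of the 7 genes was -0.01, as was that of all genes.

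Npy was 12.05, 13.2, 12.7 and 17.6 CPM in the input of pools 5 to 8 and 25.02, 28.2, 28.6 and 29.3 CPM in their pulldown. The groups were far apart, with a log2 fold change of 0.99 (SE 0.10, edgeR adjusted p = 2.59e-06), above that of 98.7% of genes. Npy2r was 19.8, 16.3, 16.2 and 17.2 CPM in input and 22.5, 21.9, 20.8 and 23.9 CPM in pulldown, without overlap (0.35, SE 0.08, edgeR adjusted p = 0.00119). Acvr1c was 13.5, 13.1, 11.9 and 13.95 CPM in input and 8.48, 7.40, 7.78 and 8.35 CPM in pulldown, without overlap (-0.72, SE 0.08, edgeR adjusted p = 3.71e-06; 0.14 on the log2(TPM + 1) scale).

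Agrp was 2.84, 3.38, 3.62 and 3.29 CPM in input and 3.15, 2.78, 3.91 and 3.77 CPM in pulldown, which overlapped. Its log2 fold change was 0.04 (SE 0.14, edgeR adjusted p = 0.819). Npy1r was 16.1 to 23.2 CPM in input and 16.98 to 18.6 CPM in pulldown (-0.18, SE 0.10, edgeR adjusted p = 0.15), and without the input of pool 8 it passed, at -0.27 (edgeR adjusted p = 0.0208). Npy5r was 3.15 to 3.51 and 3.10 to 3.63 CPM (-0.01), and Corin was 0.604 to 0.879 and 0.422 to 0.751 CPM (-0.33, SE 0.29). The sign of Npy1r turned with library totals, at 0.28, and that of Npy5r at 0.45.

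**Figure D2:**
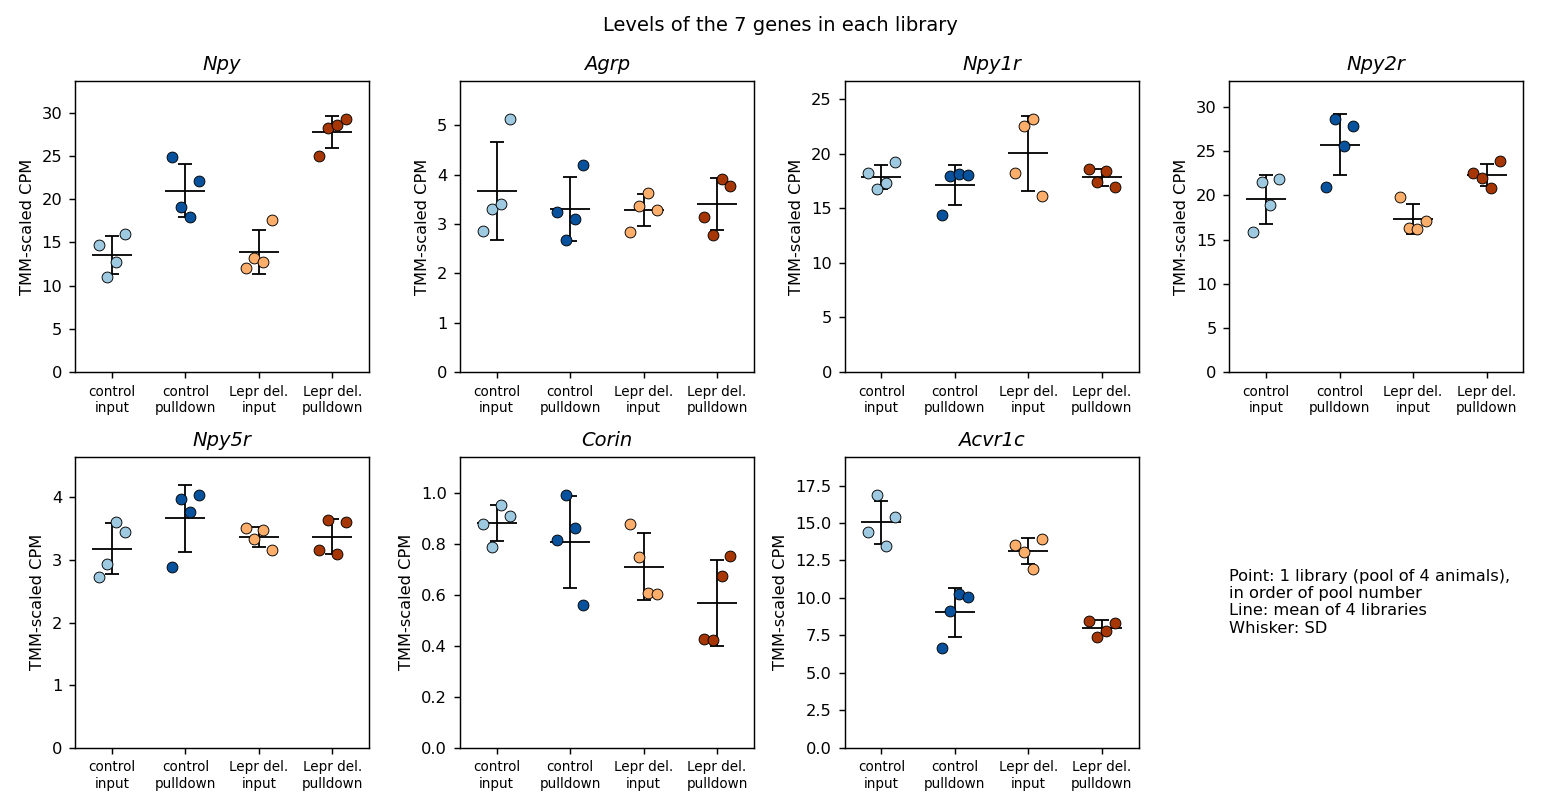
TMM-scaled CPM of the 7 genes, with 1 point per library in order of pool number and a line and whisker for mean and SD of 4, in input and pulldown of pools labelled control and Lepr deletion. Npy pulldown values lie above every input value of their genotype. For Npy2r this holds in pools labelled Lepr deletion and for 3 of 4 control pulldown libraries, while each control pulldown lies above its own input. Acvr1c pulldown values lie below input, and Agrp values overlap, with group means of 3.28 to 3.67 CPM.

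The ratio of Agrp to Npy TPM within a library does not depend on scaling between libraries. It was 15.7%, 24.3%, 21.8% and 26.1% in control input and 10.5%, 11.3%, 13.9% and 15.4% in control pulldown, every pulldown value below every input value. In pools labelled Lepr deletion it was 19.04%, 20.7%, 23.0% and 15.1% in input and 10.2%, 7.95%, 11.01% and 10.4% in pulldown, again without overlap. The pulldown minus input differences were -0.77 and -0.97 on the log2 scale. Each had an exact two-sided permutation p of 0.0286, the smallest that 70 assignments allow, and of 0.0571 after adjustment over 4 comparisons, which is above 0.05. These assignments moved libraries freely, although input and pulldown of a pool came from the same lysate. The p-values of pulldown against input therefore take no account of the pairing. Between genotypes the difference was -0.37 in pulldown (exact permutation p = 0.0571, adjusted 0.0762) and -0.17 in input (exact permutation p = 0.457).

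**Figure D3:**
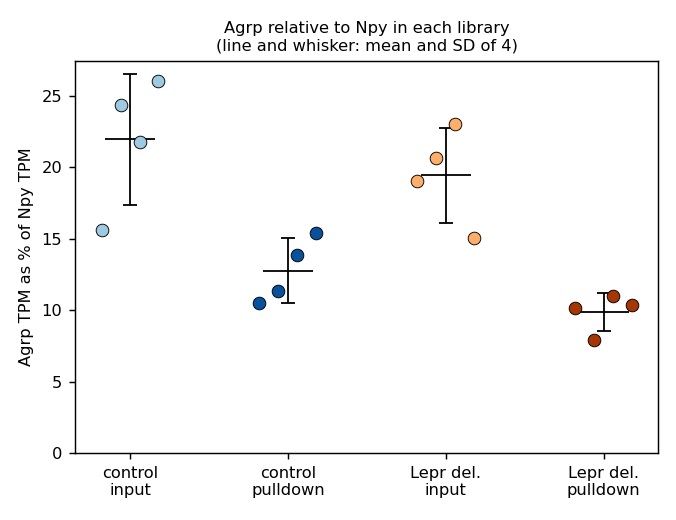
Agrp TPM as a percent of Npy TPM in each library (points), with mean and SD of 4 libraries. Input means are 22.0% in control and 19.4% in pools labelled Lepr deletion, and pulldown means are 12.8% and 9.87%, without overlap between input and pulldown of a genotype.

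The second comparison was between pools labelled Lepr deletion and control, within pulldown and within input. No gene of the 7 passed in pulldown, where 0.641% of 16859 genes did (0.391% higher and 0.249% lower), or in input, where 0.231% of 17735 did (0.135% higher and 0.0959% lower), by the quasi-likelihood test of edgeR. Before adjustment 1 of the 7 was under 0.05 in each fraction. With DESeq2 the calls among the 7 were 1 in pulldown (Npy) and 0 in input. Of called genes 61.1% were higher in pulldown with TMM and 39.5% with library totals; in input these shares were 58.5% and 87.0%. Pools 1 and 5 were known from earlier results of these data to lie apart from the other pools. Without them 3363 of 16918 genes passed in pulldown and 1957 of 17838 in input, so that single-gene calls and list counts below are read against those numbers. These pools were picked with results of these data known, so calls and counts without them cannot serve as support.

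Npy in pulldown came nearest to passing. The 4 values of pools labelled Lepr deletion, 25.02 to 29.3 CPM, lay above the 4 control values, 17.96 to 24.8 CPM, with a narrow gap between pool 5 and pool 1. The log2 difference was 0.42 (SE 0.09, unadjusted p = 0.000751, edgeR adjusted p = 0.0671), above that of 95.8% of genes. The authors' deposited table gives a log2 difference of 0.42 with an adjusted p of 0.00208, and DESeq2 run here gave an adjusted p of 0.00231. Without pools 1 and 5 the difference was 0.55 (edgeR adjusted p = 0.000614), without control pool 1 alone 0.50 (edgeR adjusted p = 0.0178) and without pool 5 alone 0.45 (edgeR adjusted p = 0.023). Pool 1 held the highest control value and pool 5 the lowest of the other group. Leaving either out had to widen the difference, so these fits cannot serve as support for it.

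Sums of several gene lists also lay apart between genotypes in pulldown. The share of all genes whose values lie apart in this way was not counted, so no excess can be read from these sums. A sum rests mostly on its most abundant genes. Summed GABAergic neuron markers were 2750 to 3391 CPM in control pulldown and 3395 to 3661 CPM in the pulldown labelled Lepr deletion, although 0 of 10 passed by edgeR. Sums of some other gene lists also did not overlap. Glutamatergic markers were 360 to 411 CPM in control and 288 to 356 CPM in pools labelled Lepr deletion. Microglia markers were 11.4 to 11.95 and 9.54 to 10.6 CPM, and tanycyte and ependymal markers 16.5 to 17.9 and 18.1 to 20.7 CPM. POMC-neuron genes were 268 to 281 and 229 to 238 CPM, and NPY receptor coupling genes 3433 to 3562 and 3318 to 3371 CPM. GABA-release genes were 2983 to 3631 and 3642 to 3934 CPM. By edgeR 1 POMC-neuron gene and 1 coupling gene passed, both lower, and no gene of the other lists named here did. Over all genes 0.641% passed. The sums of the remaining lists overlapped, among them astrocyte markers at 379 to 409 and 384 to 425 CPM. Of the astrocyte markers 10 of 10 fold changes were above 0 and 0 passed. The mean log2 CPM of 4 Y-linked genes was 3.00 in the pulldown of control pool 1, 3.77 to 3.98 in control pools 2 to 4 and 3.62 to 4.78 in pools 5 to 8. With that mean as a covariate, chosen after seeing the data, the Npy difference was 0.44 (edgeR adjusted p = 0.123). The part of these gene lists in the Npy difference was not tested. In input Npy was 12.05 to 17.6 CPM in pools labelled Lepr deletion and 10.95 to 15.9 CPM in control, a difference of 0.03 (SE 0.13, edgeR adjusted p = 0.942).

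Agrp in pulldown was 2.78 to 3.91 CPM in pools labelled Lepr deletion and 2.68 to 4.21 CPM in control, a difference of 0.05 (SE 0.16, edgeR adjusted p = 0.883). In input the difference was -0.16 (SE 0.17). Npy2r in pulldown was 20.8 to 23.9 CPM against 20.9 to 28.7 CPM in control (-0.20, SE 0.09, edgeR adjusted p = 0.265). It passed without pools 1 and 5 (-0.29, edgeR adjusted p = 0.00881) and without control pool 1 alone (-0.29, edgeR adjusted p = 0.0409). In input Npy2r was -0.17 (SE 0.10, edgeR adjusted p = 0.462), and it passed without pools 1 and 5, at -0.33 (edgeR adjusted p = 0.0125). Control pool 1 held the lowest control value of Npy2r in both fractions, so leaving it out had to widen these differences.

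Acvr1c in pulldown was 7.40 to 8.48 CPM against 6.69 to 10.3 CPM (-0.17, SE 0.13, edgeR adjusted p = 0.496), and it passed without pools 1 and 5, at -0.32 (edgeR adjusted p = 0.0209). Pool 1 held the lowest of these control values and pool 5 the highest of the others. Leaving both out had to widen this difference. In input Acvr1c was -0.20 (SE 0.08, unadjusted p = 0.0352, edgeR adjusted p = 0.316). Corin had the difference of largest size among the 7 genes in pulldown, -0.50, with the largest SE, 0.26 (edgeR adjusted p = 0.309). Npy1r was 0.07 (SE 0.08) in pulldown and 0.16 (SE 0.10) in input, and Npy5r was -0.11 (SE 0.13) and 0.08 (SE 0.13). None of these 4 values passed.

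**Figure D4:**
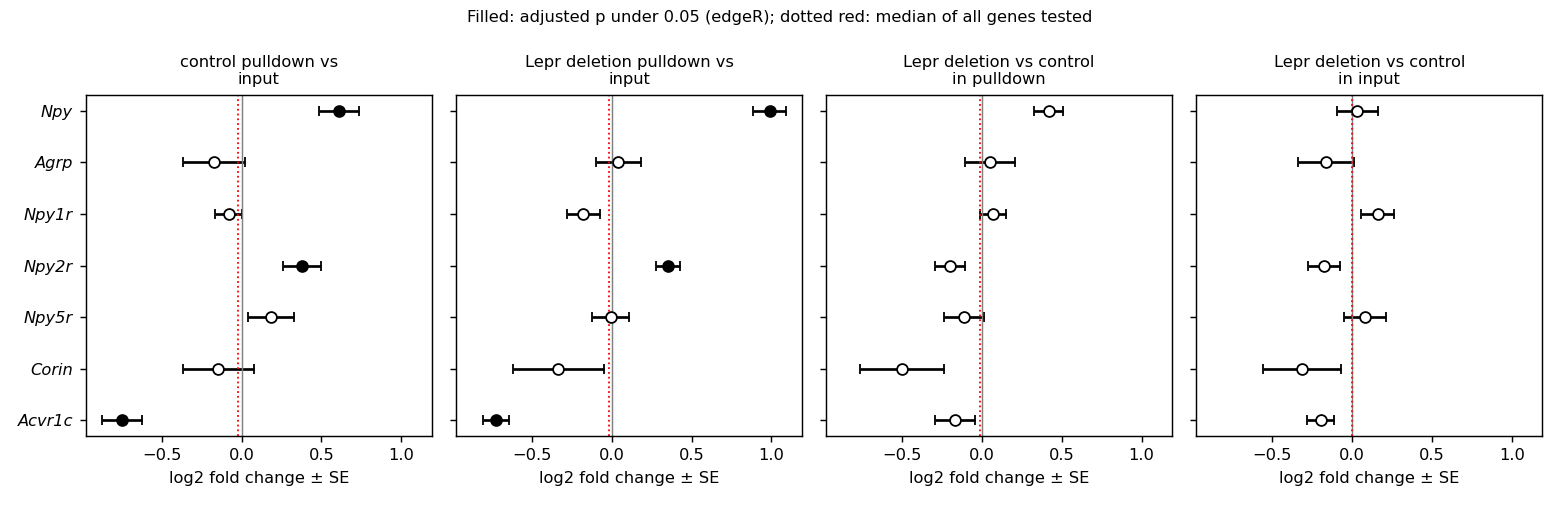
log2 fold changes (points) with SE (whiskers) of the 7 genes in 4 comparisons; filled points have an edgeR adjusted p under 0.05, and the dotted line is the median of all genes tested. Npy is 0.61 and 0.99 in the enrichments and 0.42 between genotypes in pulldown, and no point is filled between genotypes.

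The difference between the enrichments of both genotypes was tested in all 16 libraries. By edgeR 2 of 18530 genes passed (0.0108%, with 0.0054% in each direction), and none of the 7 was among them. Of the 7, 0 were under 0.05 before adjustment, and DESeq2, which called 21 of 18530 genes, called 0. For Npy it was 0.37 (SE 0.18, unadjusted p = 0.0508, edgeR adjusted p = 0.556), so the larger fold change of Npy in pools labelled Lepr deletion was not shown to differ from that in control. For Agrp it was 0.20 (SE 0.25), for Npy2r -0.04 (SE 0.15) and for Acvr1c 0.02 (SE 0.15).

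Other genes of these pathways were counted from lists chosen with earlier results known, as a description. The shares over all genes to hold beside these counts are 30.1% higher and 34.6% lower in control and 28.8% higher and 32.8% lower in pools labelled Lepr deletion. Of 23 tested AgRP-neuron genes, which include Npy, Agrp, Npy1r, Corin and Acvr1c, 14 were higher and 3 lower in control pulldown (18 and 1 with library totals), with a median of 0.47 beside -0.02 over all genes. In pools labelled Lepr deletion 14 of 22 were higher and 3 lower (18 and 3 with library totals), with a median of 0.40. Such counts are not particular to AgRP-neuron genes. In control 9 of 10 GABAergic neuron markers were higher and 1 lower (median 0.96). Of 12 pan-neuronal markers 11 were higher and 1 lower (median 0.56), and of 7 tested glutamatergic markers 3 were higher and 3 lower (median 0.44). Sst, somatostatin, was 2.13 higher in control and 2.11 in pools labelled Lepr deletion. Otp, a transcription factor of AgRP neurons, was 0.79 and 0.82, and Asb4 was 0.62 and 0.59. Lepr, the leptin receptor, was lower, at -1.42 and -1.22. Serpina3n, a secreted protease inhibitor, was -0.15 in control, which did not pass, and -1.12 in pools labelled Lepr deletion, and the difference of -0.98 passed (SE 0.15, edgeR adjusted p = 0.0391).

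**Figure D5:**
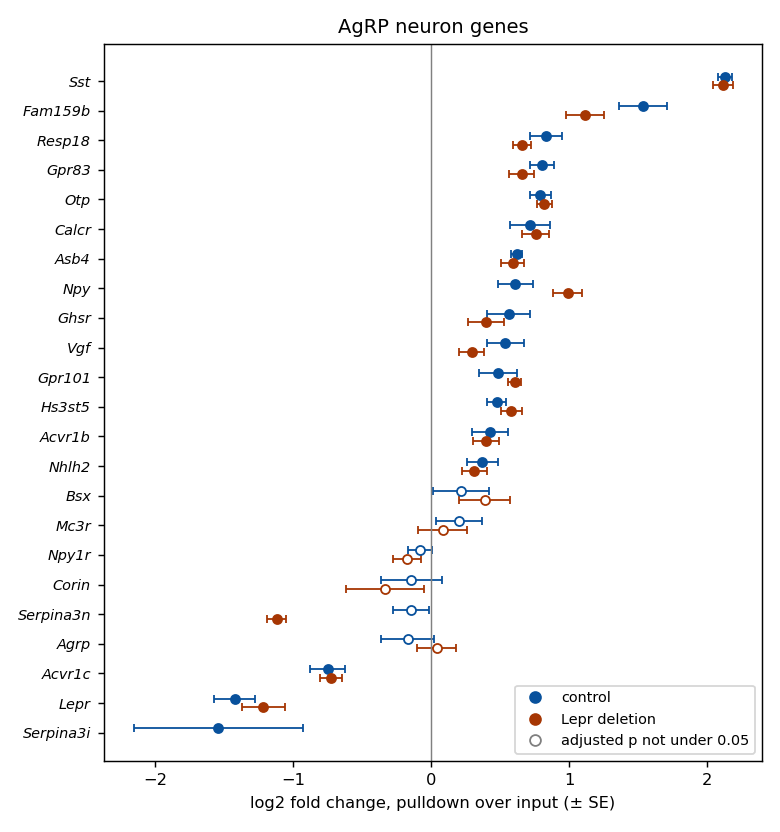
log2 fold changes of pulldown over input (± SE) of AgRP-neuron genes, 23 in control and 22 in pools labelled Lepr deletion; open points have an adjusted p not under 0.05. Sst, at 2.13 in control, is far above the rest of the list, Npy is 0.61, Agrp is near 0 and Acvr1c, at -0.75, and Lepr, at -1.42, are below it.

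Of 6 tested NPY family genes, 2 were higher (Npy and Npy2r) and 1 lower in each genotype; 4 were higher and 1 lower with library totals. The lower gene was Npy6r, a further NPY-family receptor gene, with 29 to 47 counts in control input and 2 to 4 in control pulldown, and with 10 to 49 and 0 to 1 in pools labelled Lepr deletion. These pulldown counts lie at or near the floor of 3 counts, which covers counting error only. Npy4r, the receptor for pancreatic polypeptide, was -0.82 in control and did not pass (edgeR adjusted p = 0.0583).

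NPY receptors act through inhibitory G proteins, potassium channels and calcium channels. Of 18 such coupling genes 10 were higher and 2 lower in control (17 and 0 with library totals) and 11 and 2 in pools labelled Lepr deletion (16 and 0), with medians of 0.28 and 0.21. Kcnj3 and Kcnj9, subunits of G-protein-gated potassium channels, were 0.72 and 0.78 in control, Gnao1, an inhibitory-class G protein subunit, was 0.62, and Gng3 was 0.72. Between genotypes 1 of 18 passed in each fraction, where 0.641% of all genes did in pulldown and 0.231% in input. It was Kcnj3, lower at -0.30 in pulldown (SE 0.06, edgeR adjusted p = 0.0487) and -0.33 in input (SE 0.06, edgeR adjusted p = 0.0299) in pools labelled Lepr deletion. Without pools 1 and 5, 10 of 18 were lower and 2 higher in pulldown, where 3363 of 16918 genes passed, 1581 of them higher.

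Of 20 tested genes of the activin and ALK7 pathway 10 were lower and 2 higher in control (median -0.31; 34.6% and 30.1% over all genes) and 11 and 2 in pools labelled Lepr deletion (median -0.45; 32.8% and 28.8%). With library totals 5 were lower and 7 higher in control, and 7 and 7 in pools labelled Lepr deletion. Lower beside Acvr1c were Smad3 (-2.13 in control) and Smad4 (-0.67), which carry the signal to the nucleus, Tgfbr1 (-1.16), a related receptor, and Tdgf1 (-4.71), a co-receptor. Acvr1b, the related activin receptor ALK4, was higher, at 0.43. Among 9 tested genes of the corin and natriuretic peptide system 4 were lower and 0 higher in control, but 0 lower and 4 higher with library totals. In pools labelled Lepr deletion 5 were lower and 1 higher (2 and 3 with library totals); over all genes 34.6% were lower in control and 32.8% in pools labelled Lepr deletion. The 4 in control were Furin (-0.81) and Pcsk6 (-0.45), which are proteases, and the natriuretic peptide receptors Npr1 (-1.49) and Npr3 (-0.42).

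Of 8 melanocortin and agouti genes 2 were higher and 1 lower in both genotypes (6 and 1 in control and 7 and 1 in pools labelled Lepr deletion with library totals). Mgrn1 was 0.38 and Mrap2, an accessory protein of melanocortin receptors, 0.59 in control. Pomc, the precursor of the peptides that AgRP opposes, was lower, at -1.14 in control and -1.55 in pools labelled Lepr deletion. Mc3r (0.20) and Mc4r (0.18), the receptors that AgRP blocks, did not pass. Of 6 genes of GABA release, 4 were higher and 2 lower in control (5 and 0 with library totals; median 0.91) and 3 higher and 2 lower in pools labelled Lepr deletion (3 and 1 with library totals; median 0.26), beside 30.1% and 28.8% higher over all genes. Gad1 and Gad2, which make GABA, were 1.00 and 0.82 in control. Of 21 peptide-processing genes 11 were higher and 7 lower in control (14 and 2 with library totals) and 10 and 7 in pools labelled Lepr deletion (15 and 2), among them Pcsk2 (0.61), a convertase of neuropeptide precursors, and Cpe (-0.87), a carboxypeptidase. Between genotypes 0 of 21 passed in pulldown by edgeR, with 19 of 21 values below 0 and a median of -0.21. In input 0 passed, with 17 of 21 below 0 and a median of -0.17. Over all genes the medians were -0.01 in pulldown and -0.002 in input. Without pools 1 and 5, 17 were lower in pulldown, where 3363 of 16918 genes passed, 1581 of them higher. In input 11 were lower, where 1957 of 17838 passed, 767 of them higher.

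The likeness of other genes to Npy and Agrp was ranked by Pearson correlation of log2 CPM over 16 libraries among 12358 genes. It is a description, since the libraries share scaling, depth and the contrast of pulldown with input. By level Macrod2 (r = 0.97), Tiam1 (0.96), Btbd11 (0.95) and Rps6ka2 (0.95) were among the nearest to Npy, while Agrp stood at 0.08. By deviation from the 4 group means Prkd1 (0.89), Fam107a (0.88) and Apba1 (0.88) came nearest to Npy, and Agrp was 0.39. For Agrp the highest values were 0.68 by level (Mcm3ap and Serac1) and 0.82 by deviation (Nkain4). Levels carry the contrast of pulldown with input, in which Npy passed and Agrp did not. The level values of Npy and Agrp can therefore not be compared with each other.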

How the data were processed

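Input and pulldown RNA of 8 pools, 4 per genotype label, was sequenced as 16 libraries. The submitters' processing notes name Salmon 1.10.1, DESeq2 1.38.3 and GRCm38; annotation release, trimming and strand are not given in the sources used here. The authors deposited estimated counts per gene, estimated counts rescaled by length, TPM, and a table of their own comparisons with log2 fold changes and adjusted p-values. Each pool of 4 animals gave an input and a pulldown library. Between genotypes within a fraction, p-values measure the spread between pools. Fits of pulldown against input, and of the difference of enrichment, treated both libraries of a pool as independent. Libraries of a group differed by more than counting noise (chi-square per degree of freedom 8.16 to 49.9 over 24 pairs).

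Estimated counts were rounded and fitted in edgeR 4.0.16 (R 4.3.3) by its quasi-likelihood method, two-sided, with TMM scaling, filterByExpr (minimum count 10, total 15) and Benjamini-Hochberg adjustment at 0.05. Each fit used the 8 libraries compared, or all 16 for the difference of enrichment. The scripts were tested on simulated data. CPM are TMM-scaled, and correlations used log2 CPM with a prior count of 2. The Agrp to Npy TPM ratio was compared by exact permutation of libraries, without regard to pool. Alternatives were DESeq2 1.42.0, RLE factors, library totals, dropping the filter or requiring a mean of 1 CPM, rescaled counts, limma 3.58.1 on log2(TPM + 1) and log2(TPM + 0.1), mitochondrially encoded genes removed, all 16 libraries in 1 fit, the pool as a block, each library left out, pools 1 and 5 left out, and, added after seeing the data, a Y-linked covariate.

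Input and pulldown of a pool came from 1 lysate per the labels' extraction protocol, which pairs them; deviations of the same pool correlated at 0.0786 to 0.50, above 0.1 in 6 of 8 pairs, and each library correlated best with its own pool in 8 of 8. The fits reported have no pool block. Named genes were the 7 genes, Pnoc and Lepr, up to 4 genes per list with the smallest p in control enrichment, and list genes that passed between genotypes or for the difference of enrichment; Acvr1b, Mc3r and Mc4r were named after their values were seen. Some genes that this rule names are not reported here. The 7 genes and all lists were chosen with earlier results of these data known. Symbols came from the deposited tables; 45143 of 45706 gene IDs were found in the reference's name table. Promoters came from RefSeq (GRCm38.p6), with an entry for 6 of 7 genes.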

Additional observations from a re-analysis of the deposited data

Results flagged for a closer look

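Npy1r stood out in 1 library. It was 14.38 CPM in the pulldown of control pool 1 and 17.98 to 18.17 CPM in pools 2 to 4, a gap from the other libraries so large a share of the group's range that it exceeds Dixon's 95% critical value for 4 samples. It was 1 of 32 groups of 4 libraries tested, and about 1 in 20 such groups is flagged by chance.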

How the results depend on the processing

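In control enrichment 3 of the 7 genes passed, 4 with library totals, all of them higher, and 6 on log2(TPM + 1) and on log2(TPM + 0.1). In pools labelled Lepr deletion 3 passed, and 6 with library totals and 5 on each TPM scale. These scales move the median of all genes (by 0.547 with library totals and 0.772 on log2(TPM + 1) in control), and several of the 7 genes turned sign. In control Agrp was 0.80 and 0.86 on log2(TPM + 1) and log2(TPM + 0.1) (0.38 with library totals), and Npy1r 0.82 and 0.89 (0.47 with library totals). Corin there was 0.23 and 0.68 (0.40 with library totals), and Acvr1c 0.14 and 0.19. In pools labelled Lepr deletion Npy1r was 0.68 and 0.74 (0.28 with library totals), Npy5r 0.66 and 0.87 (0.45 with library totals), and Acvr1c 0.14 and 0.20. Corin in these pools was 0.12 and 0.39 (0.12 with library totals). The enrichment calls of Npy, Npy2r and Acvr1c held in 8 of 8 fits that left out 1 library, in both genotypes. Paired fits with the pool as a replicate block changed no call of the 7 genes and moved the genes called for the difference of enrichment from 2 to 4.

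Between genotypes the number of called genes varied widely, and the cause was not tested. In pulldown 108 genes passed, against 266 with no filter, 1065 by DESeq2, 16 with rescaled counts, 30 on log2(TPM + 1), 22 on log2(TPM + 0.1), 508 with all 16 libraries in 1 fit, 29 with the Y-linked covariate and 3363 without pools 1 and 5. Leaving out 1 library gave 19 to 1262 (1262 without pool 5 and 556 without control pool 1). In input 41 passed, against 108 with library totals, 261 with no filter, 380 by DESeq2, 11 with rescaled counts, 22 and 20 on the TPM scales, 246 with the Y-linked covariate and 1957 without pools 1 and 5; leaving out 1 library gave 19 to 402. For the difference of enrichment 2 passed, against 4 with RLE factors, 4 with library totals, 6 with no filter, 21 by DESeq2, 0 with rescaled counts, 6 on log2(TPM + 1) and 87 without pools 1 and 5; leaving out 1 library gave 1 to 5.

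Of the 7 genes 0 passed between genotypes in pulldown by edgeR, but 1 with no filter, 1 by DESeq2 and 3 without pools 1 and 5, with 0 to 2 when 1 library was left out. In input 1 passed without pools 1 and 5. The Npy difference in pulldown was 0.35 to 0.50 with 1 library left out, and passed in 2 of 8 such fits. The control Agrp to Npy ratio difference was -0.925 to -0.68 with 1 library left out, and its exact permutation p was 0.0571 whenever a control pulldown library was missing. Between genotypes in pulldown the ratio difference was -0.45 (exact permutation p = 0.0286, without control pool 1) to -0.27. Control pool 1 held the lowest control ratio in pulldown. Leaving it out had to widen the difference, so that fit cannot serve as support. The other fits with 1 library left out gave exact permutation p of 0.0571 to 0.171. Corin has the fewest counts. With 4 pools a group, small differences of the 7 genes cannot be told from none.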

Other observations

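Gene groups close to the 7 genes were counted the same way, beside 30.1% higher and 34.6% lower over all genes in control and 28.8% and 32.8% in pools labelled Lepr deletion. Of 21 transcription factors linked to NPY and AgRP neurons 11 were higher and 5 lower in control pulldown (18 and 2 with library totals), with a median of 0.35, and 11 and 5 in pools labelled Lepr deletion (16 and 3). Dlx1 (1.09) and Dlx2 (1.24), which specify forebrain GABA neurons, and Isl1 (0.60) were among the higher genes. Of 14 hormone and nutrient receptors 4 were higher and 6 lower in control (7 and 3 with library totals), and 5 and 6 in pools labelled Lepr deletion (8 and 2). Glp1r, the GLP-1 receptor, was higher at 1.04, and Igf1r, the IGF-1 receptor, was lower at -0.88.

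Of 13 POMC-neuron genes 7 were higher and 3 lower in control pulldown (9 and 3 with library totals), with a median of 0.35, and 7 and 4 in pools labelled Lepr deletion (9 and 3). Cartpt, the precursor of CART peptides, was 1.08 higher in control and 0.53 in pools labelled Lepr deletion, while Pomc was lower in both, at -1.14 and -1.55. Between genotypes Cartpt was the 1 gene of the 13 that passed in pulldown, where 0.641% of all genes did, at -0.59 (SE 0.07, edgeR adjusted p = 0.00399) in pools labelled Lepr deletion. Without pools 1 and 5, 5 of the 13 were lower and 0 higher, where 3363 of 16918 genes passed, 1581 of them higher.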
